A study of Mus musculus with 8 samples.

Results

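The comparison covers the activation of wild-type CD8 T cells. It sets 2 arrays of cells activated in vitro against 2 arrays of untreated cells, 4 of the 8 arrays of the series, and the arrays were chosen by their titles. All 45037 probe sets that are not manufacturer's controls were taken, of which 27348 passed a filter on low signal and were tested. The mice, labelled wild type (C57BL/6), gave CD8+ cells of the spleen. The untreated cells carry "naive" in their titles and are called naive here. The activated cells had been kept for 3.5 days on plates coated with anti-CD3, with anti-CD28, in RPMI with FBS and T-stim, a culture supplement. The other 4 arrays, 2 naive and 2 activated, are labelled as CD8+ cells of Elf4-/- mice, in which the gene of the Ets family transcription factor Elf4 is disrupted, and were used for the shared estimate of spread and for the comparison between genotypes. No label states that the replicates of a group came from different mice or cultures; p-values therefore measure only how far these samples differ, which may be technical. No label says that cells were sorted by a naive surface phenotype, and no culture without the antibodies was among the samples, so the contrast holds the antibodies, the medium and the time in culture together.

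A naive CD8 T cell is small, rests outside the cell cycle and recirculates through lymphoid organs. Signals through the T cell receptor and CD28 drive it into growth and repeated division, with a rebuilt metabolism that feeds the synthesis of nucleotides, lipids and protein. Over days the daughter cells acquire the granzymes and cytokines of cytotoxic effector cells, lose part of the receptors that guide naive cells to lymph nodes, and become responsive to interleukin 2.

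Values are deposited intensities, scaled by the authors so that the 2% trimmed mean of every array was 500; the array medians lay between 64.1 and 86.2. Such values are shares of an array's signal, so a change in the amount of RNA per cell leaves no trace in them. Likewise, fewer cells of a type and less RNA per cell cannot be told apart. The contrast was tested over all 8 arrays with limma. A log2 change is the mean of the activated minus that of the naive arrays on the scale of log2(intensity + 16), given with its standard error (SE) and an adjusted p from limma. Adding 16 understates the change of dim genes. "Rose" and "fell" are used for genes with an adjusted p under 0.05, and folds between mean intensities are given only where both means were above the array medians.

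Array series, sex-linked genes, control RNAs and the 3′ to 5′ signal ratio of Actb all differed between the states, and none of them can be told apart from activation. Whether RNA integrity differed was not tested. The array labels in the sample descriptions belong to different series for the naive and the activated samples, so array batch and state coincide. The descriptions of both wild-type naive samples carry the same array label; their values differ throughout, so they were taken as 2 arrays, but the labels leave it uncertain that they are. Xist, the RNA expressed from the inactive X chromosome of females, read 125 and 172 on the wild-type naive arrays and 9384 and 7703 on the activated arrays. The Y-linked gene Eif2s3y went the other way, with 5146 and 4195 and then 3.57 and 2.93, so the naive arrays had a male and the activated arrays a female pattern. The Lys control RNA, which is added during preparation, read 61.0 and 73.0 on the naive and 56600 and 52460 on the activated arrays with its 5′ probe set. Its 3′ probe set read 1151 and 1654 and then 68200 and 62730. The Dap control RNA read 311.5 and 207.3 and then 65850 and 63190 at its 5′ end. At its 3′ end it read 7108 and 8255 and then 49250 and 47510, so the gap was narrower at the 3′ end for both controls. The 3′ to 5′ signal ratio of Actb, which rises as RNA degrades, was 2.13 and 2.5 on the naive and 5.98 and 5.9 on the activated arrays, while that of Gapdh was 4.04 and 4.42 and then 4.83 and 5.34. With the log2 of the Actb ratio as a covariate, which is nearly collinear with the state, the median SE of a change rose from 0.338 to 1.12 and 484 probe sets passed in place of 10714. Over the tested probe sets the wild-type naive arrays correlated at 0.94 and the activated arrays at 0.965 (Pearson's r of log2 values, a description), and naive with activated arrays at 0.816 to 0.829. The brighter Elf4 probe set read 116 and 199 in naive and 83.6 and 134 in activated cells of wild type. In the samples labelled Elf4-/- it read 165 and 192 in naive and 76.2 and 80.6 in activated cells. The dimmer probe set read 32.4 and 9.37 in naive and 112 and 58.5 in activated cells of wild type, against 77.6 and 58.2 and then 1.92 and 26.1 in Elf4-/- cells. With both probe sets the Elf4-/- arrays lay below wild type in activated cells, by little for the brighter one. In naive cells the brighter one overlapped and the dimmer one was higher in Elf4-/- cells. Where the probes lie relative to the deletion was not analysed here, so the Elf4 signal is no check of the genotypes.

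**Figure D1:**
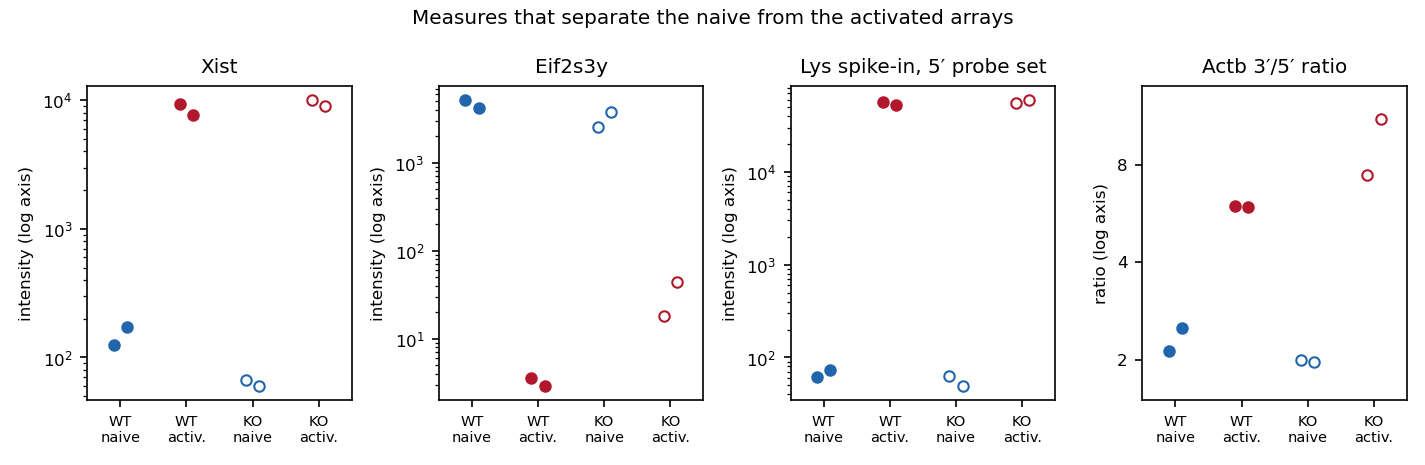
Xist, Eif2s3y, the 5′ probe set of the Lys spike-in control (intensity) and the Actb 3′/5′ ratio, all on log axes, for each of the 8 arrays. Filled points are wild type, open points Elf4-/- (KO), blue naive and red activated. In each panel the 4 naive arrays lie apart from the 4 activated arrays; in wild type, Xist reads 125 and 172 against 9384 and 7703.

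The states differed in a large part of what was measured. Of the 27348 probe sets, 10714 passed (39.2%), 4757 higher and 5957 lower in activated cells, and 7634 of them by at least 2-fold. A change of at least 8-fold was seen for 459 probe sets that rose and 368 that fell. With 1 probe set per gene, the brightest, 2699 of 12761 tested genes rose (21.2%) and 3054 fell (23.9%). These shares are the background for every count below. The lists were chosen with earlier results of these data known, so counts beside the background describe the lists and do not test them. The balance of the directions depended on scaling, since 44.4% of the called probe sets were higher as reported, 50.2% after quantile normalization and 55.2% when each array was centred on its median. The median change over all named genes was −0.122 as reported, −0.013 and 0.068 under these scalings, and list medians below are read against it.

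**Figure D2:**
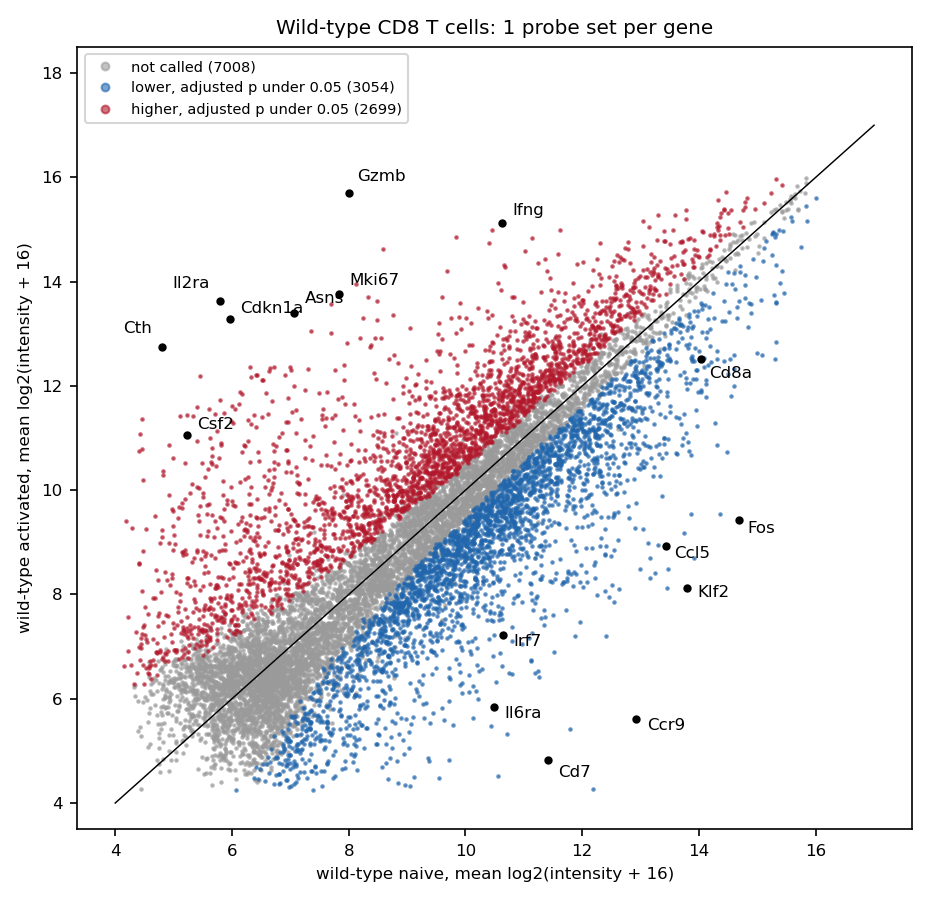
Mean log2(intensity + 16) of 12761 genes in wild-type naive (x axis) and activated cells (y axis), 1 probe set per gene, coloured by the limma call. Black points are labelled genes, among them Il2ra and Gzmb far above and Ccr9 and Klf2 far below the line of equal signal.

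Among the lists, genes of mitosis had the highest median change. Cdk1, the kinase that drives entry into mitosis, read 33.5 and 159 on the naive arrays and 4379 and 4464 on the activated arrays (log2 5.58, SE 0.44, adjusted p = 3.5e-06). Plk1, the polo-like kinase of mitosis, went from 128 and 89.7 to 1793 and 1673 (log2 3.82, adjusted p = 5.43e-07). Cdc6, which loads the replicative helicase on origins, went from 117 and 60.5 to 5019 and 5364 (log2 5.69, adjusted p = 7.33e-07), and Mcm5, a subunit of that helicase, from 4012 and 4205 to 21712 and 20593 (log2 2.36, adjusted p = 1.13e-07). The states did not overlap in any of the 4, as in 18789 of the 27348 tested probe sets (68.7%). Mcm5 alone was bright in naive cells. Their promoters are shown because cell cycle genes are textbook examples of genes that share short promoter elements: E2F sites in genes of the G1/S step, and the cell cycle homology region (CHR) with CCAAT boxes in genes of mitosis. The 200 bases before the start site, 5′ to 3′ on the gene's strand, come from RefSeq on GRCm38.p6. They lie at chr10:69352913-69353112 (minus strand) for Cdk1, chr7:122159235-122159434 (plus) for Plk1, chr11:98907951-98908150 (plus) for Cdc6 and chr8:75109309-75109508 (plus) for Mcm5. Capitals mark letters that match E2F (TTTCCCGC or TTTGGCGC), CHR (TTTGAA) or CCAAT on either strand.
Cdk1: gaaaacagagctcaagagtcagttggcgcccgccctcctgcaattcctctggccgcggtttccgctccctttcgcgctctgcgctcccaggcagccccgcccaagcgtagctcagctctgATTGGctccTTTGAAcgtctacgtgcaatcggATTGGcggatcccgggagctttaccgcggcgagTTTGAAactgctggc
Plk1: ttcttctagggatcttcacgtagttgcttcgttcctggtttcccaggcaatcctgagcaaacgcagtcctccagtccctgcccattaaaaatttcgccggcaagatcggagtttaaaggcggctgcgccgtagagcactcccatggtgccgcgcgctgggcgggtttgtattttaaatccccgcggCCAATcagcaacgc
Cdc6: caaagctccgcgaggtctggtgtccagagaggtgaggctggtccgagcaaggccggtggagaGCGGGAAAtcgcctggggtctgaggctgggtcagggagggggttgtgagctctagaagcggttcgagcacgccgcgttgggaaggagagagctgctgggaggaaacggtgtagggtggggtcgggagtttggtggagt
Mcm5: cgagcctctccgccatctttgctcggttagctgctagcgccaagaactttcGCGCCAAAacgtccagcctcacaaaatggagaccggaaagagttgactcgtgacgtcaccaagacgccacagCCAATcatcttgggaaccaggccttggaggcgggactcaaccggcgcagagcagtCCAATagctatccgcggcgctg

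Counted over windows from 250 bases before to 50 after the start, with 1 window per gene and none from chromosome 18, the letters TTTGAA stood in 39 of 59 promoters of the mitosis list (66.1%). The same letters stood in 12.0% of the promoters of the 10318 tested genes, of 12761, that had one, and in 18.1% of all 27025 promoters in the table. An E2F match was found in 13 of 46 promoters of the replication list (28.3%), in 6 of 24 of the G1 list (25.0%) and in 5 of 59 of the mitosis list (8.47%), against 3.04% of tested genes. CCAAT stood in 72.9% of mitosis, 56.5% of replication and 80.0% of cholesterol synthesis promoters, against 38.5% of tested genes. It stood in 37.5% of G1 and 21.1% of T cell receptor promoters, both below that share. For comparison, none of 19 promoters of the T cell receptor list held an E2F match, and 4 held TTTGAA (21.1%). Matches of different motifs can share at most 1 letter, and a match describes letters, not binding.

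Of 69 measured genes of G2 and mitosis, 62 rose and none fell, with a median of 4.35. Mki67, whose protein Ki-67 marks dividing cells, read 174 and 255 in naive and 13710.5 and 14188 in activated cells, a 65.1-fold difference (log2 5.94, SE 0.20, adjusted p = 2.67e-08). Top2a, the topoisomerase that untangles sister chromatids, rose from 251 and 369.7 to 13328 and 13519, and Kif2c, a microtubule-depolymerising kinesin, from 84.1 and 76.6 to 3686 and 3735. Bub1, a kinase of the spindle checkpoint, went from 44.4 and 3.68 to 2747 and 2701. Nek2, a centrosome kinase, went from 32.3 and 20.7 to 3320 and 2864, and Melk from 7.79 and 52.2 to 2754 and 2711. All 3 were among the 15 largest rises of all genes. Cks1b, a small partner of cyclin-dependent kinases, was already at 1300.2 and 1392 in naive cells and reached 25848 and 28835. The 7 members that did not pass, or did not reach the filter, were Kif15, Pttg1, Cdc25b, Smc4, H2az1, Tubb5 and Foxm1, with values from −0.90 to 0.57 on the log2 scale. Foxm1, a transcription factor of mitotic genes, read 65.8 and 291 in naive and 155 and 306 in activated cells, with overlapping states. With the Actb ratio as a covariate 30 of the 69 still rose, and leaving out any single array gave 61 to 63.

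DNA replication and licensing genes had a lower median, 1.66, with 49 of 55 higher and none lower. Rrm2, the regulated subunit of ribonucleotide reductase, had the largest change among them, from 382 and 356 to 26223 and 24486 (68.7-fold, log2 6.04, SE 0.13, adjusted p = 3.34e-09). Its partner Rrm1 went from 854 and 942 to 8239.8 and 8358, and Dut, which keeps uracil out of DNA, from 1520.3 and 1469 to 16398 and 15556. The helicase subunits were present in naive cells and rose by similar steps, for example Mcm6 from 2603 and 2396 to 13461 and 15123 (log2 2.51), while the origin subunit Orc1 went from 65.2 and 76.8 to 1762 and 1606 (log2 4.29). Pcna, the sliding clamp of DNA polymerases, rose 3.93-fold, from 7026 and 7021 to 28732 and 26446 (log2 1.97, adjusted p = 3.46e-05). Fen1, Rpa1, Chaf1b, Rfc2, Orc5 and Tyms were the 6 that did not pass, with log2 changes from 0.12 to 1.16. With the Actb covariate 10 of the 55 rose.

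Among 31 cyclins of G1, E2F factors and inhibitors of cyclin-dependent kinases, 20 rose and 2 fell (median 0.947), or 4 without WT_naive replicate 1. The G1/S cyclin gene Ccne2 went from 35.9 and 68.0 to 3031 and 2925 (log2 5.50, adjusted p = 1.46e-07) and Ccne1 from 1132 and 2765 to 9775 and 11026. Cdk6, a G1 kinase, rose 7.66-fold, from 1347 and 1298 to 10971 and 9286. The D-type cyclin gene Ccnd2 was bright in both states, 10488 and 15124 and then 20578 and 20317 (log2 0.70, adjusted p = 0.00642), but 3 other probe sets of it did not pass, with log2 values from −0.20 to −0.08. Of the E2F genes, E2f1 went from 124 and 154 to 328 and 420.3 (log2 1.33, adjusted p = 0.00534), not passed without WT_activated replicate 2 (adjusted p = 0.0556). The late repressor E2f8 rose by 4.72. The inhibitors moved in opposite directions. Cdkn1a, which encodes p21, a p53 target that blocks cyclin-dependent kinases, had the fourth largest rise of all genes, from 34.0 and 61.4 to 10274 and 9635 (log2 7.32, SE 0.27, adjusted p = 3.06e-08). Cdkn1b, which encodes p27, the inhibitor associated with resting T cells, fell from 1418 and 933 to 238 and 462 (log2 −1.74, SE 0.30, adjusted p = 0.000873). Ccng1, another p53 target, rose 3.60-fold from 7320.5 and 6773 to 26258 and 24518.

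Of 26 receptors and ligands that mark or amplify activation, 13 rose and 5 fell, the latter below the background share (median 0.805). Il2ra, the high-affinity chain of the interleukin 2 receptor, had the second largest rise of all genes, from 34.1 and 45.2 to 13069.6 and 12249 (log2 7.84, SE 0.18, adjusted p = 3.64e-09). Tnfrsf9, which encodes the costimulatory receptor 4-1BB, went from 819 and 646 to 9325 and 7103 (11.2-fold, adjusted p = 1.76e-07), and Tnfrsf4, which encodes OX40, from 485 and 622 to 3982 and 4307. Icos, a costimulatory relative of CD28, was already at 2882 and 3238 and reached 24063 and 22931. The transferrin receptor gene Tfrc, needed for iron uptake by dividing cells, rose 12.8-fold from 1643 and 1560 to 20929.8 and 19944. Tnfsf11, the ligand RANKL, went from 46.4 and 29.1 to 1577 and 1236, and Slamf1, a homotypic signalling receptor, from 452 and 332 to 1581 and 1412. The early activation marker Cd69, by contrast, fell from 6371 and 8565 to 3118 and 2789.8 (log2 −1.32, SE 0.18, adjusted p = 0.000147). Cd27 (log2 −1.87), Nt5e (−2.24), Cd86 (−2.33) and Cd48 (−0.52) were the other 4 that fell. Cd48 was not passed without WT_naive replicate 1 or WT_activated replicate 2 (adjusted p = 0.0618 and 0.114). Cd40lg, the helper molecule of CD4 T cells, was dim, with 98.2 and 67.1 in naive and 43.5 and 62.7 in activated cells (log2 −0.51, adjusted p = 0.457).

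Of 13 inhibitory receptors 5 rose and 1 fell (median 0.221). Ctla4, which competes with CD28 for its ligands, read 341 and 507 and then 9847 and 11230.2, a 24.8-fold rise (log2 4.61, SE 0.21, adjusted p = 9.05e-08). Pdcd1, which encodes PD-1, went from 53.9 and 44.4 to 873 and 785 and Lag3, a ligand of MHC class II, from 19.9 and 12.4 to 408 and 484. Cd200 rose 19.6-fold, from 233 and 217 to 4436 and 4375, and Havcr2, which encodes TIM-3, went from 29.1 and 83.1 to 466 and 525 (log2 2.93, adjusted p = 0.00333). On these arrays Pdcd1, Lag3 and Havcr2 were near or below the array median in naive cells, and Ctla4 and Cd200 were above it. Klrg1, a marker of terminal effector cells, fell from 193 and 411 to 97.2 and 118 (log2 −1.28, adjusted p = 0.0353). It was not passed without WT_naive replicate 2, WT_activated replicate 1 or WT_activated replicate 2 (adjusted p = 0.233, 0.154 and 0.0893), and not after quantile normalization or centring. Entpd1, an ecto-ATPase of exhausted cells, read 62.4 and 54.8 in naive and 86.2 and 151 in activated cells (adjusted p = 0.227), and Lair1 read 139 and 197 in naive and 82.9 and 119 in activated cells (adjusted p = 0.373).

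Of 28 cytokine receptors and their feedback inhibitors 6 rose and 14 fell (median −0.658), and the share that rose was near the background of 21.2%. Il2rb, the signalling chain shared by interleukin 2 and 15, rose 2.38-fold, from 879 and 729.8 to 1846 and 1986 (adjusted p = 0.000173). Il12rb2, which makes cells responsive to interleukin 12, went from 45.0 and 25.9 to 629 and 827 (log2 3.87, adjusted p = 6.63e-06). Cish, a target and inhibitor of STAT5 signalling, went from 609 and 907 to 7104 and 5964. Socs2, of the same family, went from 57.2 and 18.9 to 1654 and 1545. Il7r, the receptor for the survival cytokine of naive cells, fell 3.86-fold, from 22248 and 21964 to 5395 and 6063 (log2 −1.95, SE 0.11, adjusted p = 3.07e-07). The shared signalling chain of interleukin 6, Il6st, fell 15-fold, from 5031 and 3699 to 238 and 344, and the receptor Il6ra fell by 4.66 on the log2 scale. Tgfbr2, the ligand-binding receptor of TGF-beta, fell 3.95-fold from 9257 and 10014 to 2403 and 2479. Socs3, which restrains interleukin 6 signalling, fell 6.16-fold, from 9221 and 7920.4 to 1194 and 1587 (adjusted p = 5.2e-07).

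The cytotoxic genes did not move as a block. Of 26, 11 rose and 5 fell, with a median of 0.232, and the share that fell was below the background of 23.9%. Gzmb, granzyme B, went from 178 and 323 to 54773 and 51448 (212-fold, log2 7.69, SE 0.27, adjusted p = 2.69e-08), among the brightest genes of the activated arrays. Gzmc, granzyme C, went from 3.34 and 7.52, below background, to 1693 and 1710.4 (log2 6.33, adjusted p = 1.58e-07). Fasl, the death ligand, rose 5.66-fold from 157 and 344 to 1352 and 1479.8. Stx11, a syntaxin of granule release, rose 13.7-fold from 175 and 231 to 2611 and 2957. Serpinb9, an inhibitor of granzyme B, rose 10.0-fold from 908 and 630.3 to 9041 and 6398. Serpinb6b, another granzyme inhibitor, went from 699 and 554 to 5803 and 5741. Perforin (Prf1), the pore-forming protein of the granules, read 1561 and 1861 in naive and 1609 and 1379 in activated cells, with overlapping states (log2 −0.19, SE 0.19, adjusted p = 0.473). Granzyme A (Gzma) differed more between the naive replicates than between the states, with 459 and 2493 in naive and 635 and 1062 in activated cells (adjusted p = 0.658). Granzymes K and M fell, Gzmk by 1.77 and Gzmm by 2.86 on the log2 scale. Gzmk was not passed without WT_naive replicate 1, WT_naive replicate 2 or WT_activated replicate 1 (adjusted p = 0.0779, 0.106 and 0.273). Granzymes C to G are similar in sequence and may share probes, so which of them rose is uncertain.

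Of 28 cytokines and chemokines 19 rose and 3 fell (median 2.18). Interferon gamma (Ifng) went from 1017 and 2382 to 38417 and 32820, a 21.0-fold rise (log2 4.50, SE 0.30, adjusted p = 1.01e-06). Ccl3, a chemokine for inflammatory cells, rose 43.9-fold, from 174 and 212 to 10186 and 6756. Csf2, which encodes GM-CSF, went from 23.5 and 19.4 to 1827 and 2430.3, and Lif, a member of the interleukin 6 family, from 53.7 and 28.4 to 3492 and 3251, both from below the array median. Il2 itself went from 6.51 and 5.97 to 475 and 413 (log2 4.37, adjusted p = 9.3e-06), and the type 2 cytokine gene Il13 rose by 3.0. Tnf did not pass (log2 0.18, adjusted p = 0.578). Ccl5, a chemokine whose RNA is abundant in memory CD8 cells, fell 23.1-fold, from 10534 and 11672 to 560.1 and 399.7. Ltb, a lymphotoxin subunit, fell 7.51-fold, from 12934 and 11923 to 1624 and 1685, and Il16 fell from 7908 and 7196 to 1113 and 1233. Ccl5 and Ccl3, which lie in 1 chemokine cluster of the genome, thus moved in opposite directions. With the Actb covariate 2 of the list rose and 3 fell.

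**Figure D3:**
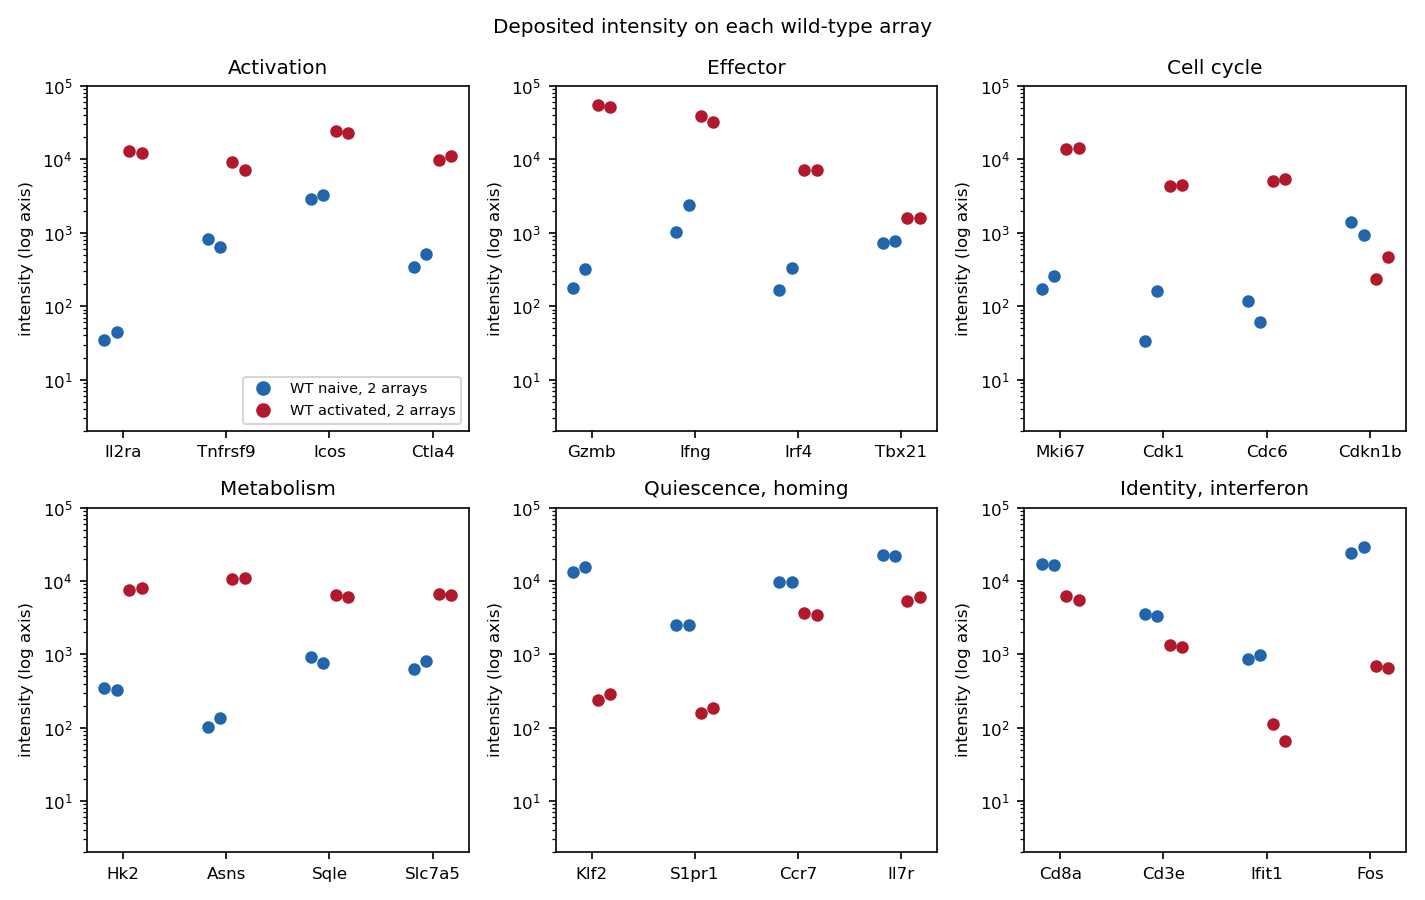
Deposited intensity (log axis) of 24 genes on each wild-type array, 2 naive arrays in blue and 2 activated arrays in red. Il2ra goes from 34.1 and 45.2 to 13069.6 and 12249 and Klf2 from 13065 and 15381 to 242 and 284.

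Transcription factors of effector and memory cells moved both ways, 11 of 32 higher and 8 lower, the latter near the background share (median 0.00 as reported and 0.19 when centred). Irf4, which scales with the strength of T cell receptor signalling, rose 29.1-fold, from 165 and 331 to 7153 and 7268 (log2 4.85, SE 0.29, adjusted p = 5.21e-07). Bhlhe40, a repressor that supports cytokine production, went from 160 and 252 to 4780.4 and 5357, and Hif1a, the oxygen-sensitive factor of glycolytic genes, from 2849 and 2038 to 20436 and 21654. T-bet (Tbx21), a driver of effector fate, rose 2.10-fold, from 736 and 769.7 to 1581 and 1582 (adjusted p = 0.000332). Its paralog Eomes read 2027 and 1225 in naive and 1727 and 1381 in activated cells (log2 −0.03, SE 0.23, adjusted p = 0.932), and Prdm1, which encodes Blimp-1, 159 and 142 in naive and 179 and 347 in activated cells (adjusted p = 0.157). Ikzf2, the Ikaros relative Helios, rose 4.94-fold from 319 and 334 to 1570.3 and 1657. Nfatc1, a calcium-regulated factor, fell 3.79-fold on its brightest probe set, from 4417 and 3905 to 1096 and 1101, while another of its probe sets was called in the opposite direction. Without WT_naive replicate 1 or WT_activated replicate 1, 4 of the 32 fell in place of 8.

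Of 28 genes of amino acid transport and the Atf4 response 22 rose and 2 fell (median 1.67). Asns, asparagine synthetase, went from 101 and 137 to 10554 and 11014 (90.6-fold, log2 6.33, SE 0.18, adjusted p = 1.79e-08). Slc7a5, the leucine transporter LAT1, rose 9.05-fold from 621 and 813 to 6644 and 6345, while its heavy chain Slc3a2, bright in both states, rose 1.54-fold from 3325 and 4014 to 5455 and 5868. Gpt2, a mitochondrial alanine transaminase, went from 40.1 and 59.5 to 2503 and 2476, and Trib3, a pseudokinase induced by Atf4, from 189.9 and 207 to 1955 and 1891. The transfer RNA synthetase genes Gars and Aars rose 4.40-fold and 3.25-fold. Atf4, the factor of the amino acid response, rose from 3954 and 8449 to 11019 and 14023 (log2 1.10, SE 0.27, adjusted p = 0.00785). It was not passed without WT_activated replicate 2 (adjusted p = 0.0793), and with the Actb covariate the value was −0.06 (adjusted p = 0.986). Another bright Atf4 probe set read 6616 and 7730 in naive and 6691 and 6166 in activated cells and did not pass (log2 −0.16, adjusted p = 0.378), so the rise rests on 1 probe set. Ddit3 and Cebpb, stress factors of the same response, fell by 1.29 and 1.81. Cth, cystathionine gamma-lyase, which makes cysteine, had the largest rise of all genes, from 23.5 and 3.68 to 7050.1 and 6629.9 (log2 7.94, SE 0.31, adjusted p = 3.94e-08).

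Of 28 enzymes of nucleotide synthesis and one-carbon metabolism, 21 rose and none fell (median 1.53). The serine synthesis enzyme gene Psat1 rose 11.9-fold, from 2205 and 1939 to 24301 and 24872 (log2 3.56, SE 0.14, adjusted p = 4.34e-08). Mthfd2, a mitochondrial folate enzyme, went from 1219.9 and 1593 to 10686 and 10444 and Shmt2, which feeds it with carbon from serine, from 4535 and 5417 to 10989.6 and 10679. Pfas, an enzyme of purine synthesis, rose 6.38-fold and Cad, the enzyme that begins pyrimidine synthesis, 2.05-fold. Ahcy, of the methionine cycle, rose 4.08-fold from 2809.7 and 2706 to 10915 and 11585, and Srm, spermidine synthase, 3.50-fold from 3605 and 4152 to 13853 and 13289.7.

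Of 28 genes of glucose transport, glycolysis and the pentose phosphate pathway 20 rose and 3 fell (median 1.31). Hk2, the inducible hexokinase, rose 23.1-fold, from 344 and 327 to 7611 and 7902 (log2 4.47, SE 0.15, adjusted p = 2.52e-08). Triosephosphate isomerase (Tpi1) went from 2585 and 2669 to 20939 and 23314, Pgam1 from 2554 and 2789.8 to 17430.1 and 20541, and lactate dehydrogenase A (Ldha) from 9593 and 10642 to 40117 and 39280.4. The glucose transporter gene Slc2a1 rose 3.01-fold, the lactate transporter gene Slc16a1 4.01-fold, Pfkp 2.93-fold and pyruvate kinase (Pkm) 2.58-fold. Pgls and Taldo1, of the pentose phosphate pathway, and Pdk1, which restrains pyruvate entry into mitochondria, fell by 1.20, 0.62 and 0.40. Taldo1 was not passed without WT_activated replicate 1 (adjusted p = 0.0913). Pdk1 was not passed without WT_naive replicate 1, WT_naive replicate 2, WT_activated replicate 1, KO_activated replicate 1 or KO_activated replicate 2 (adjusted p = 0.0775, 0.105, 0.316, 0.0523 and 0.0518). When arrays were centred on their medians 1 member fell.

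Cholesterol and fatty acid synthesis rose in 24 of 32 members and fell in 1 (median 1.57). Sqle, squalene epoxidase, rose 7.42-fold, from 906 and 772 to 6369 and 6071 (log2 2.87, SE 0.14, adjusted p = 1.6e-07). Idi1, of isoprenoid synthesis, went from 885 and 611 to 9552 and 9251, Cyp51, of sterol synthesis, from 409 and 356 to 4041 and 4431, and Fdft1, squalene synthase, from 1726 and 1664 to 7665 and 8144. The desaturase gene Scd2 rose 23.3-fold, from 1588 and 1216 to 32372 and 33062, and fatty acid synthase (Fasn) 3.76-fold. The member that fell was Acss2, which activates acetate (log2 −2.11).

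The respiratory chain and ATP synthase showed no common direction. Of 41 subunits, 9 rose and 12 fell, shares near the background, with a median of −0.147 as reported, −0.155 after quantile normalization and 0.043 when centred. Cox5a, of complex IV, rose 2.66-fold, from 14147 and 13956 to 36896 and 37987, and cytochrome c (Cycs) 1.68-fold. Sdha, of complex II, fell 2.71-fold, from 10911 and 9642 to 3891 and 3700.5 (log2 −1.43, SE 0.13, adjusted p = 8.35e-06). Ndufb10, of complex I, fell 2.14-fold and Uqcrh, of complex III, 2.30-fold. Without WT_activated replicate 1, 4 subunits rose and 8 fell. Without WT_activated replicate 2, 6 rose and 8 fell.

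Of 56 genes of the Myc network and ribosome biogenesis, 32 rose and 3 fell (median 0.623). Myc, the growth factor-induced activator of these genes, rose 1.66-fold, from 2982 and 2246 to 4445 and 4211 (log2 0.74, SE 0.16, adjusted p = 0.00322), and its antagonist Mxd4 fell 5.77-fold, from 2091 and 2604 to 489.7 and 324. Noc4l, Nip7 and Nolc1, factors of ribosome assembly, rose 4.74-fold, 3.47-fold and 3.84-fold, and nucleolin (Ncl) 1.80-fold, from 15199.6 and 12617 to 26031 and 24154. Of the dimmer probe sets of Ncl 2 rose and 2 did not pass, and a dimmer one of Nip7 did not pass (log2 −0.15). Fibrillarin (Fbl), a methyltransferase of ribosomal RNA, fell 1.69-fold from 9413 and 10755 to 6075 and 5867. Of 36 cytosolic ribosomal proteins none rose and 15 fell (median −0.275), while under quantile normalization 2 rose and 13 fell, under centring 2 rose and 9 fell, and without WT_activated replicate 2 the falls were 10. Rps15 fell 6.91-fold, from 41741 and 39299.8 to 5599 and 6128, and Rps19 2.94-fold, while Rps3 read 46875 and 49609 in naive and 49020 and 46116 in activated cells (log2 −0.02, adjusted p = 0.892). Another probe set of Rps24 was called in the opposite direction to the brightest, and ribosomal protein genes have many near-identical pseudogenes, so single members are uncertain. The Elf4-/- arrays gave 14 higher and 9 lower of the same 36.

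Of 35 chaperones of the endoplasmic reticulum and the cytosol 28 rose and 2 fell (median 0.911), or 1 without any single array other than WT_naive replicate 2. Hspd1, the mitochondrial chaperonin Hsp60, rose 5.42-fold, from 4938 and 5152 to 28077 and 26606 (log2 2.43, SE 0.10, adjusted p = 6.18e-08). Hsp90aa1 went from 8844 and 7952 to 35176 and 38602, the chaperonin subunit Tcp1 from 11697 and 12296 to 33223 and 31720.1, and Xbp1, the transcription factor of the unfolded protein response, from 3796 and 3872 to 20330.2 and 20992. Hspa5, which encodes BiP, read 18373 and 21539 in naive and 17136 and 17059.8 in activated cells on its brightest probe set (log2 −0.22, adjusted p = 0.198), while another probe set was called higher (log2 0.81). Of 36 proteasome subunits 20 rose and 8 fell, the latter near the background share (median 0.612). Psmc6 and Psmd12, of the regulatory particle, rose 4.37-fold and 3.48-fold, and Psma1, of the core, 2.97-fold. The 3 immunoproteasome subunits, which are induced by interferon, fell. Psmb8 fell 2.46-fold, from 8943 and 8959 to 3848 and 3415, and Psmb10 4.57-fold, from 6294 and 7198 to 1388 and 1563. A dimmer probe set of Psmb8 did not pass (log2 −0.24). Psmb9 fell by 0.97 and the activator subunit Psme1 by 0.91 on the log2 scale. Psmb5, the constitutive subunit that Psmb8 replaces, rose 1.51-fold, from 5654 and 7497 to 10329 and 9499.9 (adjusted p = 0.00579). It was not passed without WT_activated replicate 1 (adjusted p = 0.0602).

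Of 30 genes of quiescence and the naive state 23 fell and none rose (median −1.33). Klf2, which holds T cells in quiescence and switches on homing receptors, fell 54.1-fold, from 13065 and 15381 to 242 and 284 (log2 −5.67, SE 0.18, adjusted p = 2.3e-08). Klf3 fell 30.8-fold, from 10383 and 8145 to 290.1 and 312, and Txnip, a brake on glucose uptake, 13.4-fold, from 23846 and 21663 to 1673 and 1714. Lef1, a factor of naive and stem-like T cells, went from 8677 and 7419 to 1733 and 1757, and Foxo1, which drives Klf2, Il7r and Ccr7, from 8858 and 5426 to 1727 and 3269 (log2 −1.54, SE 0.29, adjusted p = 0.00147). Tsc22d3, a glucocorticoid target, fell 11.4-fold, and Klf4, which restrains division of CD8 T cells, by 2.75 on the log2 scale. Satb1, Foxj1, Pdcd4, Bach2, Btg1, Myb and Tsc1 were the 7 that did not pass or did not reach the filter, with values from −0.26 to 0.29.

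Of 27 homing and trafficking receptors 18 fell and 3 rose (median −1.43). Ccr9, the receptor for the gut chemokine Ccl25, had the largest fall of all genes after the Y-linked Eif2s3y, from 8544 and 7062 to 54.6 and 17.7 (log2 −7.32, SE 0.50, adjusted p = 1.29e-06). S1pr1, needed for exit from lymphoid organs, fell 14.4-fold, from 2491 and 2491 to 158 and 187 (log2 −3.74, adjusted p = 1.96e-07), and S1pr4 8.43-fold. Ccr7, the lymph node homing receptor, fell 2.75-fold, from 9717 and 9674 to 3639 and 3423 (log2 −1.45, SE 0.14, adjusted p = 1.25e-05). Cxcr3, a receptor for inflamed tissue, fell 12.1-fold, from 6183 and 6269.5 to 464 and 563, Cxcr6 11.8-fold, and the gut-homing integrin chains Itgb7 and Itga4 8.56-fold and 9.39-fold. The 3 that rose were the adhesion receptor and activation marker Cd44 (log2 2.26), Ccr4 (2.16) and Itgav (1.27). Ccr4 was not passed without WT_activated replicate 2 (adjusted p = 0.0627).

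Of 23 genes of the T cell receptor complex and its proximal signalling 21 fell and 1 rose (median −1.40). Cd8a, a chain of the coreceptor that defines these cells, fell 2.87-fold, from 17150.2 and 16424 to 6289.5 and 5421 (log2 −1.52, SE 0.12, adjusted p = 2.86e-06), and Cd8b1 4.88-fold, from 14095 and 11866 to 2754 and 2571. Of 4 other probe sets of Cd8a 2 fell (log2 −1.75 and −1.76) and 2 did not pass (−0.24 and −0.34). The signalling chains Cd3g, Cd3d and Cd3e fell 6.73-fold, 4.0-fold and 2.65-fold, for example Cd3e from 3588 and 3364 to 1354 and 1269. Cd2, an adhesion receptor, went from 17675 and 17258 to 5690.2 and 4908, and Plcg1, the phospholipase of receptor signalling, from 6495 and 4957 to 1549 and 1597. The member that rose was the adaptor Lcp2 (log2 0.84), not passed without WT_naive replicate 2 or WT_activated replicate 1 (adjusted p = 0.0532 and 0.108). Themis did not pass (−0.27). All 7 measured CD8 T cell markers fell in wild-type and in Elf4-/- cells. Their summed intensity was 102000 and 94800 on the naive and 31700 and 30400 on the activated arrays, so the markers of the labelled cell type were bright in both states.

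Immediate early and stress response genes, which respond within minutes of a stimulus or of tissue dissociation, moved both ways, 20 of 41 lower and 14 higher (median −0.464). Fos, an AP-1 subunit, fell 39.6-fold, from 24169 and 29038 to 703 and 641 (log2 −5.27, SE 0.16, adjusted p = 2.04e-08). Jun, its partner, fell 24.2-fold, from 6164 and 5166 to 269 and 198. The MAP kinase phosphatase Dusp1 fell 39.1-fold, from 12895 and 18549 to 446 and 359, and Zfp36, which degrades cytokine messages, 23.5-fold. Ppp1r15a, which restores translation after stress, went from 5514 and 6412 to 217 and 216. Fos was thus among the bright genes of the cells called naive. Egr1, a target of receptor signalling, read 3933 and 5358 in naive and 3832 and 4488 in activated cells (adjusted p = 0.559). Nr4a1, an orphan nuclear receptor induced by the same signals, read 1415 and 3263 in naive and 2032 and 1794 in activated cells (adjusted p = 0.721). The states overlapped for both. Its relative Nr4a3 rose 10.2-fold, from 557 and 492 to 5901 and 4809.7 (log2 3.31, SE 0.17, adjusted p = 1.58e-07), as did Nr4a2 (log2 3.18), Egr2 (1.69) and Dusp4 (3.34).

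Of 39 interferon-stimulated genes 25 fell and 2 rose (median −1.33). Ifit1, an inhibitor of viral translation, fell 10.5-fold, from 871 and 988 to 111 and 65.8 (log2 −3.21, SE 0.36, adjusted p = 4.7e-05). Irf7, the amplifier of type I interferon, fell 11.9-fold, from 1589 and 1566 to 128 and 137, and Irf1 4.86-fold, from 12532 and 14831 to 2825 and 2805. Irf9, a subunit of the interferon-activated factor, and Ddx58, the RNA sensor RIG-I, fell 3.70-fold and 4.52-fold. Igtp (log2 0.78) and Iigp1 (0.89), GTPases induced by interferon gamma, were the 2 that rose. Of 9 genes of MHC class I presentation 7 fell and 1 rose (median −0.815), or 4 and 1 when arrays were centred. H2-K1, a classical class I heavy chain, fell 2.02-fold, from 41638 and 40318 to 20548 and 20093, its regulator Nlrc5 2.0-fold and the peptide-loading gene Tapbp, counted with the interferon-stimulated genes, 3.37-fold. The light chain B2m fell 1.37-fold, from 39490 and 41529 to 29247 and 30049 (adjusted p = 0.00287), a call lost when arrays were quantile normalized or centred. Its other probe set fell 3.31-fold, from 32516 and 26497 to 9016 and 8840 (log2 −1.72, adjusted p = 5.02e-06). Cd1d1, which presents lipids, fell 8.17-fold, and the class I gene H2-Q10 rose 3.24-fold, from 122 and 197 to 483 and 554. Class I genes are near-identical in sequence, so their probe sets may share signal.

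In the Gimap and Schlafen families, GTPases of lymphocyte survival and regulators of T cell quiescence, 12 of 15 fell and 2 rose (median −1.73). Gimap6 fell 5.42-fold, from 6907 and 5407 to 1175 and 1098, and Gimap3 3.83-fold. Slfn2, which is needed for T cell quiescence, fell 6.47-fold, from 13049.7 and 14134 to 2617 and 1584 (log2 −2.73, SE 0.21, adjusted p = 3.28e-06), Slfn8 11.6-fold and Slfn1 10.2-fold. Slfn3 had one of the largest rises of all genes, from 78.2 and 4.14 to 4368 and 4928 (log2 6.74, SE 0.59, adjusted p = 6.77e-06), and Slfn9 rose by 1.60. Slfn9 was not passed without WT_activated replicate 2 (adjusted p = 0.052). The members of each family lie close together on 1 chromosome and are similar in sequence.

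Among 23 regulators of apoptosis 4 rose and 8 fell (median −0.402). The share that rose was below the background of all genes. Bcl2l1, which encodes the survival protein Bcl-xL, rose 4.37-fold, from 449 and 808 to 2911 and 2579.6 (log2 2.15, SE 0.24, adjusted p = 4.28e-05). Bcl2l11, which encodes the death-promoting protein Bim, fell 3.08-fold, from 5639 and 4204 to 1299 and 1892, while Pmaip1, which encodes Noxa, rose 3.39-fold and Apaf1, the scaffold of caspase 9, 2.07-fold. Bcl2 read 5120 and 14248 in naive and 5569 and 5071 in activated cells, with the naive replicates far apart (adjusted p = 0.144), and 2 dimmer probe sets of it were called higher (log2 0.76 and 0.63). Casp9 and Diablo, which promotes caspase activity, fell (log2 −1.18 and −0.65). Casp9 was not passed without WT_naive replicate 1 or WT_activated replicate 1 (adjusted p = 0.077 and 0.0687), and Diablo not passed without WT_activated replicate 2 (adjusted p = 0.0815). The count of falls was 4 without WT_naive replicate 1 or WT_activated replicate 1, 2 without WT_activated replicate 2, and 3 when arrays were centred, all of them shares below the reported background.

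Lectin-like receptors shared with NK cells were mostly dim, and 5 of the 12 did not reach the filter. Of the 12, 2 rose and 2 fell (median −0.234), counts too small to set apart from the background shares. Klrd1, which encodes CD94, fell 4.29-fold, from 20272 and 15514 to 3903 and 4446, whereas its inhibitory partner Klrc1, which encodes NKG2A, rose 10.4-fold, from 296 and 229 to 2521 and 2925 (log2 3.31, SE 0.27, adjusted p = 4.15e-06). Klrk1, which encodes the activating receptor NKG2D, rose 4.66-fold, from 75.0 and 194 to 647 and 605.

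**Figure D4:**
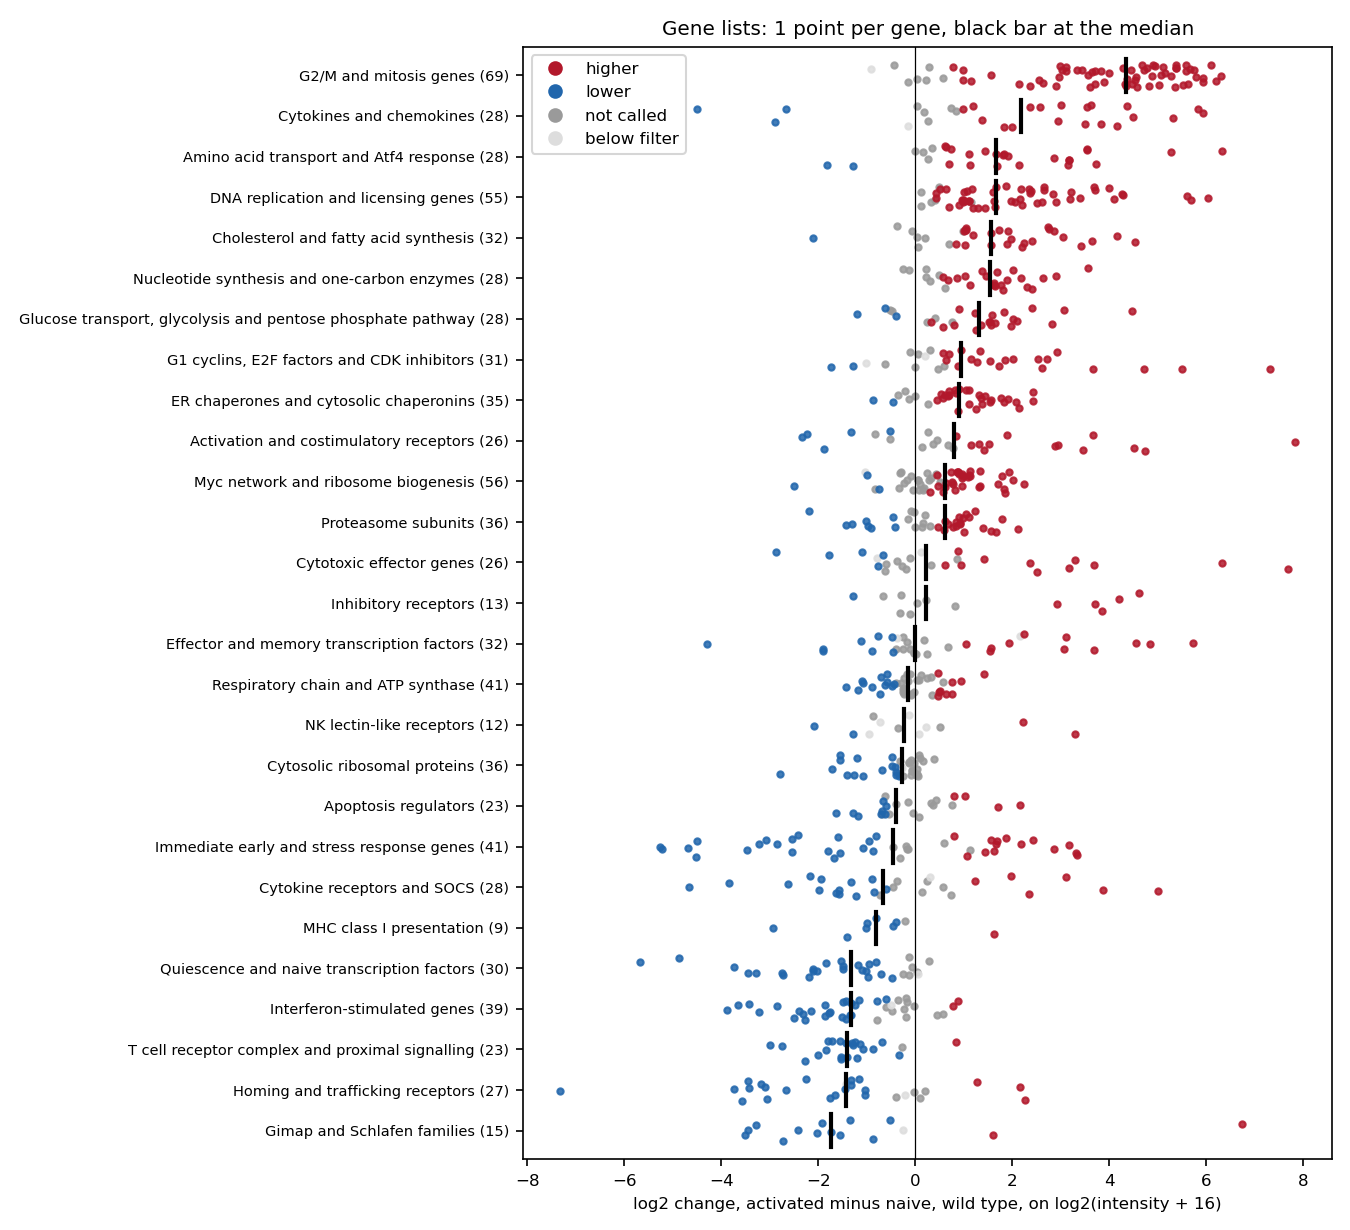
Log2 change (activated minus naive, wild type) of every measured member of 27 gene lists, with the number of members in brackets; colours give the limma call and black bars the list medians. The mitosis list (median 4.35) lies furthest to the right and the Gimap and Schlafen families (−1.73) furthest to the left.

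Several of the largest single changes lay outside these lists. Lrr1, a subunit of a ubiquitin ligase, went from 7.29 and 4.70 to 2622 and 2619 (log2 6.91, adjusted p = 1.33e-07), AA467197, a mitochondrial protein gene, from 6.73 and 5.28 to 2183 and 1401, and Pbk, a mitotic kinase, from 49.4 and 80.5 to 5111 and 5423. The centrin gene Cetn4 went from 11.3 and 36.0 to 2824 and 2739. Svs5, a gene of seminal vesicle secretion, went from 3.28 and 8.12 to 1577 and 2888 on its brightest probe set, while another of its probe sets was called lower. Among the falls, Cd7, a receptor of early T and NK cells, went from 2497 and 2937 to 12.4 and 12.2 (log2 −6.59, SE 0.25, adjusted p = 3.37e-08), and Dtx1, a target of Notch signalling, fell 42.6-fold, from 11578 and 10837 to 285 and 242. Sgk1, a kinase downstream of PI3K, fell 32.6-fold, from 11654 and 11112 to 278 and 420.5. Slc16a5, a monocarboxylate transporter, went from 1792 and 1230.2 to 4.83 and 9.52, Vipr1, a neuropeptide receptor of T cells, from 635 and 834 to 10.0 and 3.31, and Trnp1 from 997 and 688 to 8.94 and 16.1, all 3 to below background. Gm11346 (log2 −6.37), Smim27 (−5.38) and Mturn (−4.96) were further falls, as was Hsd11b1, which regenerates glucocorticoid, with 4626 and 6306 and then 44.1 and 344, a wide gap between the activated replicates (log2 −5.20, SE 0.69, adjusted p = 0.000134).

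Markers of other cells moved with the state, and their part in the falls above was not tested. Of 6 B cell markers 5 fell and none rose, and their summed intensity was 29100 and 27100 on the naive against 4640 and 4320 on the activated arrays. Ighm, the heavy chain of immunoglobulin M, made up most of it, with 25469 and 23957 and then 4200.4 and 4004, and the B cell surface gene Ms4a1, which encodes CD20, fell from 1262 and 965 to 41.2 and 27.4 (log2 −4.49, adjusted p = 4.72e-06). Cd79b, of the B cell receptor, went from 1643 and 1414 to 214 and 163. Of 8 macrophage and monocyte markers 3 fell, Csf1r from 1008 and 1187 to 191 and 76.7, Lyz2 and Cybb, with sums of 2350 and 2810 against 760 and 587. The 8 granulocyte markers gave no call, with sums of 405 and 688 against 257 and 385, and S100a8 read 123 and 101 in naive and 32.0 and 46.3 in activated cells. Of 6 dendritic cell markers Zbtb46 rose and Itgax fell, with sums of 332 and 726 against 356 and 417. The call of Zbtb46 was lost without any single array other than WT_naive replicate 1. Of 3 NK cell markers Klra8 fell and none rose, with sums of 156 and 320 against 303 and 258. The call of Klra8 was lost without WT_naive replicate 2, either wild-type activated array or either KO_naive array. None of the 4 erythroid markers reached the filter, with sums of 302 and 140 against 41.2 and 138. Of 5 markers of CD4 and regulatory T cells 1 rose, Ikzf2. Cd4 and Foxp3 did not reach the filter, with 17.9 and 19.5 in naive and 21.5 and 43.1 in activated cells for Cd4 and 69.6 and 98.7 in naive and 23.6 and 51.6 in activated cells for Foxp3. Of 5 platelet markers 2 rose, Pf4, a platelet chemokine, from 97.7 and 169 to 2944 and 2316 and Ppbp from 48.3 and 26.5 to 714 and 622. The platelet receptor genes Gp9, Gp1bb and Itga2b had values of 0.48 to 0.57 on the log2 scale and no call.

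The Elf4-/- arrays gave a second measurement of activation, with the same confounding of array batch and state. Both contrasts came from the same fit with a shared estimate of spread, so the calls of the genotypes are not independent. Of the 27348 tested probe sets 11395 passed in the Elf4-/- contrast, 4976 higher and 6419 lower. Of the 10714 wild-type calls, 8483 were called the same way in Elf4-/- cells, 79.2% of the wild-type and 74.4% of the Elf4-/- calls, and 19 were called the opposite way. Il2ra changed by 7.47 there, Gzmb by 6.92, Cdk1 by 3.76, Asns by 6.19, Klf2 by −6.88 and Ccr9 by −7.62.

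The change itself differed between genotypes for 16 probe sets in limma, 11 with a more positive and 5 with a more negative change in wild-type cells, and for 10 genes by their brightest probe set (0.0784% of 12761). Before adjustment, 2661 probe sets had a p under 0.05. The count depended on single arrays. It was 0 without either wild-type activated array or without KO_activated replicate 1, 3 without KO_activated replicate 2, 6 and 38 without KO_naive replicate 2 or 1, and 59 and 83 without WT_naive replicate 1 or 2. Lad1, which encodes ladinin, an anchoring filament protein of epithelia, rose in wild-type cells from 310 and 367 to 4936 and 4035, while the Elf4-/- arrays read 269 and 273 in naive and 309 and 409.9 in activated cells (difference of the log2 changes 3.29, SE 0.31, adjusted p = 0.00681). Il24, a cytokine of the interleukin 10 family, rose less in wild-type cells, from 64.2 and 61.4 to 872 and 1056, than in Elf4-/- cells, from 15.1 and 11.4 to 3659 and 3492 (difference −3.31, SE 0.35, adjusted p = 0.0127). Mki67 rose further in wild-type cells (difference 2.30, SE 0.29, adjusted p = 0.0225). Naive wild-type cells read 174 and 255 against 714 and 1006 in naive Elf4-/- cells, and activated wild-type cells 13710.5 and 14188 against 10582 and 10998 in activated Elf4-/- cells. Jun fell further in wild-type cells (difference −2.60, SE 0.34, adjusted p = 0.0335), from naive levels of 6164 and 5166 against 1456 and 979 in Elf4-/- cells. Dnajb9, a co-chaperone, fell in wild-type cells from 4038 and 4089 to 1034 and 989.7, while Elf4-/- cells read 1192 and 1625 in naive and 1313 and 1208 in activated cells (difference −1.85, adjusted p = 0.0335). Socs3 changed more in wild-type cells as well, −2.62 against −0.80 on the log2 scale (difference −1.82, adjusted p = 0.0225), and Tnfaip3, an inhibitor of NF-κB signalling, fell in wild-type cells, −1.54 on the log2 scale against 0.64 (adjusted p = 0.0355) in Elf4-/- cells (difference −2.19, adjusted p = 0.0471). Ccdc50 rose in wild-type cells from 646 and 919 to 3860.4 and 3678, while Elf4-/- cells read 2873 and 3130.5 in naive and 3655 and 3249.6 in activated cells (difference 2.07, adjusted p = 0.0225). Mndal, an interferon-inducible gene, fell less in wild-type cells (difference 1.66, adjusted p = 0.0127), with activated levels of 1658 and 1642 against 407 and 449. S100a8 differed through the Elf4-/- naive arrays, 1354 and 6941, against 123 and 101 in wild type (difference 6.06, adjusted p = 0.0483), where the sums of granulocyte markers were 4650 and 19500 against 405 and 688. Dimmer probe sets of the immunoglobulin gene Igha were also among the 16 (differences 5.48 and 6.67). The first read 5136 and 11402 on the Elf4-/- naive arrays, against 370 and 193 in wild type. The part of other cells in this was not tested. Lad1, Il24, Mndal and Ifi209, which passed with a dimmer probe set, all lie on chromosome 1. Whether their location plays a part was not tested.

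**Figure D5:**
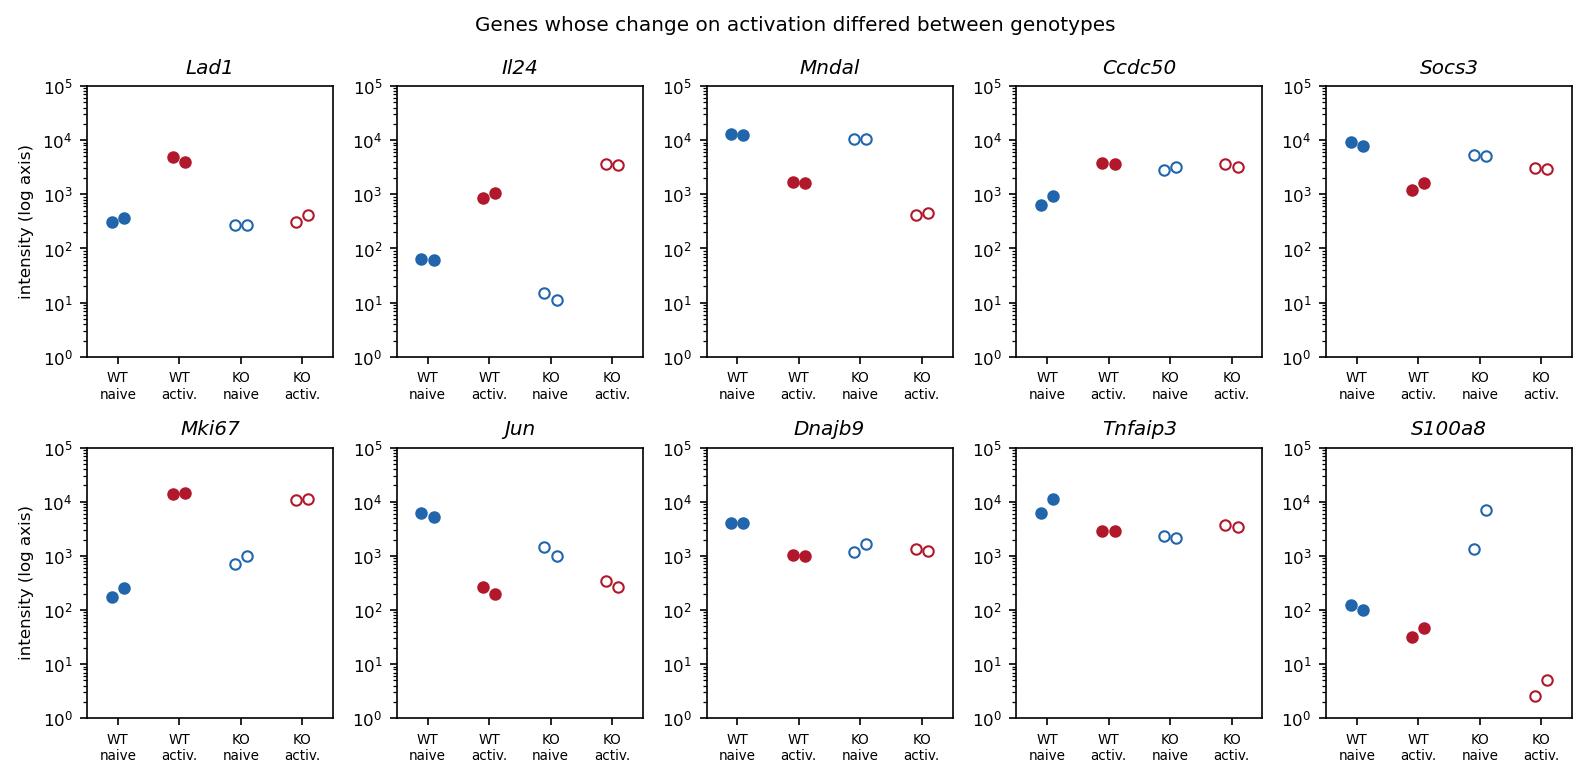
Deposited intensity (log axis) on each of the 8 arrays for the 10 genes whose change on activation differed between genotypes by their brightest probe set. Filled points are wild type, open points Elf4-/- (KO), blue naive and red activated. Lad1 goes from 310 and 367 to 4936 and 4035 in wild type and from 269 and 273 to 309 and 409.9 in Elf4-/-.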

How the data were processed

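Each of 8 samples has 1 column of array values; both wild-type naive samples carry the same array label. The authors deposited intensities computed with MAS5, per the submitters' processing notes, which name no version. From the 45101 probe sets 64 controls were left out, and the 27348 with a value no lower than the array's median on 2 or more of 8 arrays were tested. Values were log2(intensity + 16). Group means were fitted over all 8 arrays with limma 3.58.1 (R 4.3.3; lmFit, eBayes with a mean trend), two-sided, with Benjamini-Hochberg adjustment over all tested probe sets and a threshold of 0.05. The fit was tested on simulated data. With 2 arrays per group, the number of arrays limits the precision.

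Of the non-control probe sets 34945 had 1 gene symbol, 932 several and 9160 none; symbols were updated through RefSeq (GRCm38.p6) gene IDs, and 18193 genes were named by their brightest probe set. Named were the 15 largest rises and falls without overlap, lead members of 36 lists with up to 4 further members of smallest p, and the 8 smallest p for the genotype difference. Further list members were named after their values were seen. The lists had 985 entries, of which 899 had a named probe set; the others were not analysed here. Members and lists were chosen with earlier results of these data known.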

Additional observations from a re-analysis of the deposited data

Results flagged for a closer look

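The activation change differed between genotypes, by the test of the difference in limma, for 10 genes by their brightest probe set (wild-type minus Elf4-/- log2 change). It was 3.29 for Lad1, 2.07 for Ccdc50, 2.30 for Mki67, 1.66 for Mndal and 6.06 for S100a8. It was −3.31 for Il24, −1.82 for Socs3, −2.60 for Jun, −1.85 for Dnajb9 and −2.19 for Tnfaip3. Naive Elf4-/- cells read 714 and 1006 for Mki67, against 174 and 255 in naive wild-type cells, and 1456 and 979 for Jun, against 6164 and 5166. The S100a8 difference came with granulocyte marker sums of 4650 and 19500 on the Elf4-/- naive arrays, and the part of these cells in it was not tested. Under the alternatives tried, Lad1 passed in 17 of 22 and Mki67 in 15 of 22, and Il24 in 15 of 21. Jun passed in 14 of 22 and Dnajb9 in 13 of 22, while Mndal, Ccdc50 and Socs3 passed in 14 of 21 each. The differences of Tnfaip3 and S100a8 were not followed under the alternatives. The Lys control RNA, outside the gene measurements, averaged 54500 on the wild-type activated arrays and 67 on the naive arrays (5′ probe set). Its 3′ probe set read 1151 and 1654 on the wild-type naive arrays and 68200 and 62730 on the activated arrays.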

How the results depend on the processing

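The count of called probe sets in the wild-type contrast stayed within 1.5 times the reported 10714 under 22 of 23 alternatives, and without single arrays it ranged from 7751 to 10862. The exception was the Actb 3′/5′ ratio as a covariate, with 484 calls, 231 higher and 253 lower. Of these, 480 were called the same way as reported. The covariate's SEs were larger because ratio and state nearly coincide, so it cannot separate them. With it the rises went from 62 to 30 for mitosis and from 28 to 3 for chaperones. For the Myc network list they went from 32 to 1, and for proteasome subunits from 20 to 0. The falls went from 25 to 2 for interferon-stimulated genes, from 23 to 5 for quiescence and from 21 to 2 for the T cell receptor list. The genotype difference, reported for 16 probe sets, was called for 0 with that covariate or without the mean trend, for 26 with an offset of 64 or robust estimation, for 30 with array weights, and for 0 to 83 without single arrays. The cause was not tested. Of 216 named genes called, 88 passed under every alternative that tested them. Some of the 88 were tested in fewer than 23, such as Il2ra in 22 and Lrr1 in 21. The other 128 lost the call under at least 1, all of them with the Actb covariate. With the Actb covariate Atf4 did not pass in limma, and its estimate only changed sign (log2 −0.058, adjusted p = 0.986). Same-numbered wild-type samples did not deviate together (r = 0.069), so replicate numbers were not taken as pairs. A replicate block by title gave 10170 calls and by number 10305, with 21 and 14 genotype differences. Dim probe sets are limited by signal over background.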
